A study of Homo sapiens with 12 samples.

Results

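Over all genes, 6 libraries of Caco-2 spheroids that had been exposed to lactoferrin were compared with 3 control libraries. The 6 exposed libraries were the 3 given lactoferrin alone and the 3 given methotrexate with lactoferrin, chosen by their labels, so that 9 of the 12 samples of the study were used and the 3 given methotrexate alone were left out of the fit. Of 48162 genes in the deposited count table, 15143 passed the filter on low counts in the 9 libraries and were tested. Caco-2 is an established line from a human colorectal adenocarcinoma whose cells take on features of absorptive enterocytes. In every group the cells, at passage 26, were suspended in Matrigel and grown for 5 days, without a change of medium, in DMEM with 20% fetal bovine serum, antibiotics and non-essential amino acids to form spheroids. The exposure then lasted 4 h, to carrier fluid in control, to lactoferrin, or to methotrexate and lactoferrin together, here called both agents. The labels give neither the doses nor the species or iron load of the lactoferrin, and nothing in them says that the 3 samples of a group were separate cultures. The p-values therefore measure the spread of these samples, part of which may be technical. The libraries with both agents differ from control by methotrexate, an antifolate drug, as well as by lactoferrin.

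Lactoferrin is an iron-binding glycoprotein of milk and of mucosal and neutrophil secretions. Intestinal cells can bind and take it up through several surface proteins, among them intelectin-1 and receptors of the LDL receptor family, and it has been linked to growth signalling as well as to iron handling. Growth factor signalling through the kinase ERK switches on immediate early transcription factors and, with them, its own inhibitors: the Sprouty and SPRED proteins act upstream of ERK, and the DUSP phosphatases remove phosphate from ERK and its relatives. Transcripts of these feedback inhibitors are short-lived and are commonly used as a readout of ERK output.

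Depth was close among the 9 libraries, at 18714054 to 23859094 counts, so that 3 counts stood for 0.126 to 0.160 CPM, counts scaled to a common library total. This floor covers counting error only. Of the 9 libraries, 2 stood apart on the first principal component, which held 45.1% of the variance: both agents replicate 3 at 28.1 and lactoferrin replicate 2 at 17.1, against -13.4 to 4.48 in the others. They also differed by gene length, as the plot of levels by gene length shows. In the shortest of 5 near-equal classes of gene length the median deviation from the control mean was -0.16 on the log2 scale in both agents replicate 3 and -0.07 in lactoferrin replicate 2, and in the longest class it was 0.14 and 0.07. The epithelial identity markers of the line summed to 11493 to 11838 CPM in control. They summed to 11213 to 11890.3 CPM after lactoferrin, and to 11038 to 11597 CPM after both agents. In the libraries labelled methotrexate alone, which were not in the fit, the same markers summed to 4646 to 4853 CPM and 20 fibroblast markers to 17397 to 18862 CPM. The cell make-up of those libraries was not tested. The fibroblast sums were 303 to 333 CPM in control, 322 to 346 after lactoferrin and 289.995 to 327 after both agents.

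**Figure D1:**
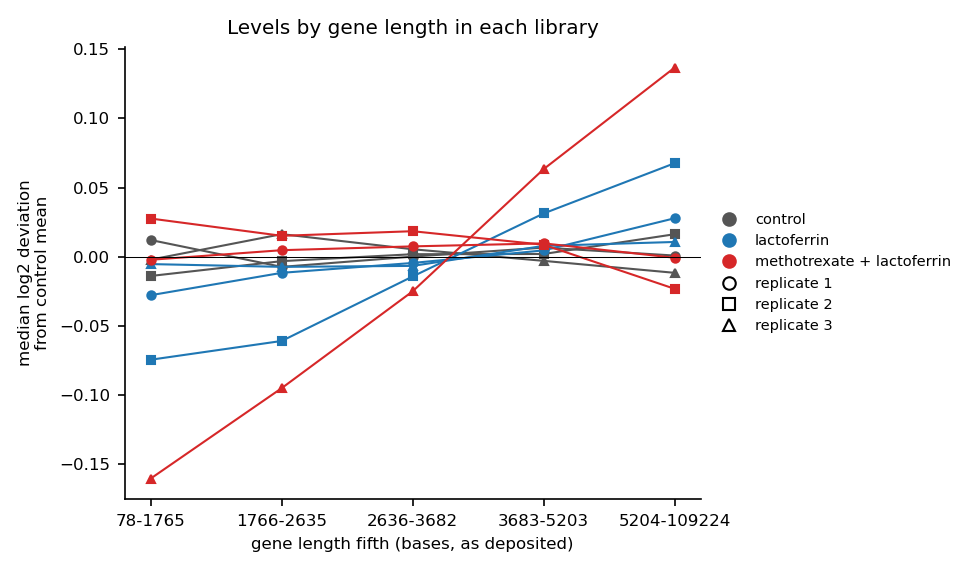
Median log2 deviation from the mean of the 3 control libraries (vertical axis) in 5 classes of gene length in bases (horizontal axis), with 1 line for each of the 9 libraries. Both agents replicate 3 runs from -0.16 in the shortest class to 0.14 in the longest and lactoferrin replicate 2 from -0.07 to 0.07, while the other 7 lines stay near 0.

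No gene passed an adjusted p under 0.05 in edgeR's quasi-likelihood test of the 6 exposed against the 3 control libraries, 0% of the 15143 tested. An unadjusted p under 0.05 was reached by 507 genes, 3.35% of those tested, of which 309 (2.04%) were higher and 198 (1.31%) lower in the exposed libraries. If no gene differed, a share of 0.05 would fall under that p on average, so low p-values were not in excess. DESeq2 on the same counts called 3 genes, SPRY4, ID1 and MYC, all lower in the exposed libraries (0.0198% of the genes tested), with 542 genes (3.58%) at an unadjusted p under 0.05, and limma-voom called 0 with 503. The median log2 fold change over all tested genes was 0.01 and the median standard error 0.12. For 13493 genes (89.1%) the 95% interval of the fold change lay within 2-fold in either direction. Among the 12281 genes whose average log2 CPM was at least 1, that held for 12209 (99.4%), and 11106 (90.4%) had an interval within 1.5-fold. The plot of fold change against level shows that fold changes past 2-fold sat nearly all among scarce transcripts: 66 genes had one, of which 1, H19, had an average log2 CPM above 1. Since no gene was called by edgeR, the genes named from here on were chosen after their values were seen, mostly for their low p, apart from genes to be given in any case (LTF, TFRC, FTH1, FTL, TYMS, CDKN1A, MKI67, LGR5, VIL1 and CDH1). In bulk RNA, fewer cells that express a gene and less RNA per cell cannot be told apart.

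**Figure D2:**
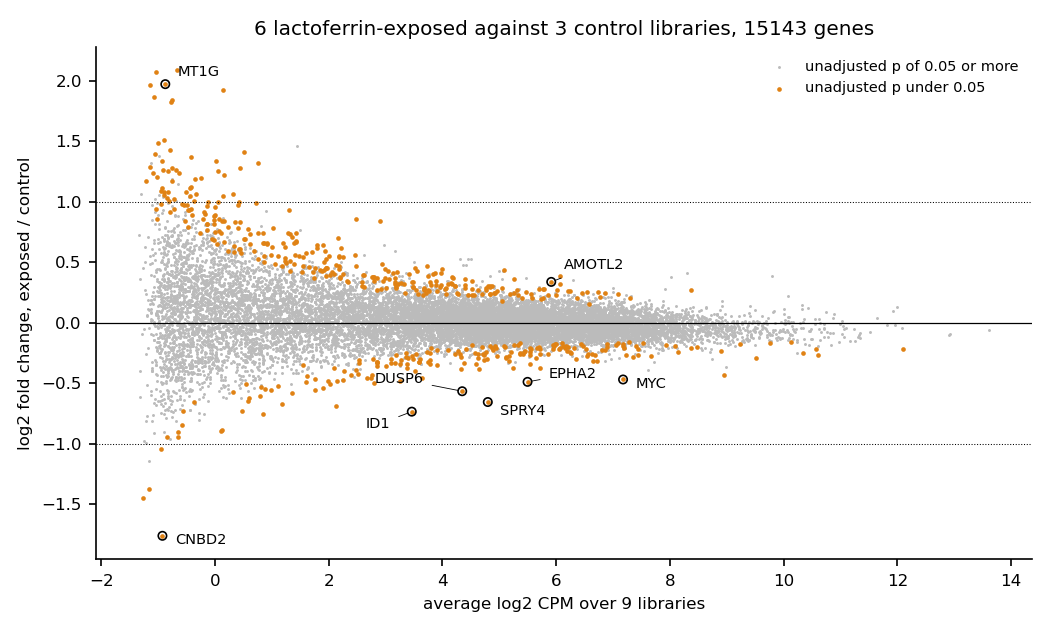
Log2 fold change of the 6 exposed against the 3 control libraries (vertical axis) against average log2 CPM (horizontal axis) for 15143 genes, with the 507 at an unadjusted p under 0.05 in orange, dotted lines at 2-fold and 8 named genes circled. SPRY4, ID1, MYC, DUSP6 and EPHA2 lie at -0.47 to -0.74 among genes of moderate to high level, whereas MT1G and CNBD2, near 2 and -2, are scarce.

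Among the feedback inhibitors that ERK signalling induces, SPRY4 was called lower by DESeq2, SPRY2 and DUSP6 were lower in all 6 exposed libraries without passing either tool, and DUSP1 and DUSP4 lay near 0. SPRY4, SPRY2, DUSP6, the transcription factor gene MYC and the receptor tyrosine kinase gene EPHA2 held 5 of the 12 lowest p-values among genes other than uncharacterised clones, each 0.38 to 0.66 lower on the log2 scale. The sequences around the start sites of SPRY4, SPRY2 (with 3 listed starts), DUSP6 and EPHA2, and of ID1, a target of BMP signalling, are shown since these genes were low together; they run from 250 bases before to 50 bases after the start, on the strand of the gene, and come from RefSeq on GRCh38.p14. Capitals mark matches to any of 4 motifs searched on both strands: TGANTCA of AP-1, CCGGAA of ETS factors, TGACGTCA of CREB and ATF factors and GGCGCC of BMP-responsive SMADs.

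SPRY4 (chr5:142324198-142324497, minus strand): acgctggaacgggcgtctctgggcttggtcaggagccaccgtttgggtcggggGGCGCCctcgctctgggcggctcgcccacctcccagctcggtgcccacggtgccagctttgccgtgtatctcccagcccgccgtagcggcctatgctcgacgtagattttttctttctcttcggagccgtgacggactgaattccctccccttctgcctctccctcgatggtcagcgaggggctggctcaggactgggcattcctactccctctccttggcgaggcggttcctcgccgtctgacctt
SPRY2, start 1 (chr13:80341077-80341376, minus strand): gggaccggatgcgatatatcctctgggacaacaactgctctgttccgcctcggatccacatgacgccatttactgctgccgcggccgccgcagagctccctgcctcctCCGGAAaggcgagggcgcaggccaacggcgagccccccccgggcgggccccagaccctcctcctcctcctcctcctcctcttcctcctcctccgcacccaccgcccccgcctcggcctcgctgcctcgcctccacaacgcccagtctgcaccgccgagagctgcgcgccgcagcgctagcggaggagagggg
SPRY2, start 2 (chr13:80340059-80340358, minus strand): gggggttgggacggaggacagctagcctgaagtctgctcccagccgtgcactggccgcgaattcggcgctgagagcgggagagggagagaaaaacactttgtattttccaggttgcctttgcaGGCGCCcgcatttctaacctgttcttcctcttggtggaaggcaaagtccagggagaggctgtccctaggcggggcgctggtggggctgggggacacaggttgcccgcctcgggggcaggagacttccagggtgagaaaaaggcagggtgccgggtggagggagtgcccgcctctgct
SPRY2, start 3 (chr13:80339610-80339909, minus strand): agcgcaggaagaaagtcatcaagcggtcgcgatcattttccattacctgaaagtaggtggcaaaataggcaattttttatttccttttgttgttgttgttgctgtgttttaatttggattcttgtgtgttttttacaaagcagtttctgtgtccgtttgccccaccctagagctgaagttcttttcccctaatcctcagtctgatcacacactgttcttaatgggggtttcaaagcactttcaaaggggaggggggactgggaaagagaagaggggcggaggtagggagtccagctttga
DUSP6 (chr12:89352452-89352751, minus strand): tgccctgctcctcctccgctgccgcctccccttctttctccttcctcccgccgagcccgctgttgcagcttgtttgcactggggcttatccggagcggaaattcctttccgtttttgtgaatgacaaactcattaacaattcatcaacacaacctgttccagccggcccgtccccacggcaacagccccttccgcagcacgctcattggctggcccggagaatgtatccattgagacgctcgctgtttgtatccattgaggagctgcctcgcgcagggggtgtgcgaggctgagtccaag
EPHA2 (chr1:16156020-16156319, minus strand): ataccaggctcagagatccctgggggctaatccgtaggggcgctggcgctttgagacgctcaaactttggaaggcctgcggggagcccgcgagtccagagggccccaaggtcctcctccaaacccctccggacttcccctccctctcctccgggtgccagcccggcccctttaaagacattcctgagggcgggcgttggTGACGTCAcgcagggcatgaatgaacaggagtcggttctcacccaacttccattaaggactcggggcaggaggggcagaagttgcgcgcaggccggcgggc
ID1 (chr20:31605039-31605338, plus strand): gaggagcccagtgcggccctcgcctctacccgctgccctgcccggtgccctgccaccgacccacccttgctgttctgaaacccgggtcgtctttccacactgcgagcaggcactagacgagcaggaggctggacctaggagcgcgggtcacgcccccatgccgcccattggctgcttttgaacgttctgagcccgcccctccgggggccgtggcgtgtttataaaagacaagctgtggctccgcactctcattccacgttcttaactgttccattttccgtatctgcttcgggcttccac

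The window of SPRY4 held 1 GGCGCC and that of EPHA2 1 TGACGTCA. Of the SPRY2 windows the first held 1 CCGGAA, shown in capitals, the next 1 GGCGCC and the last none of the 4 motifs, and those of DUSP6 and ID1 held none. Not shown are ZNF239 and CNBD2, also lower and among the 12 lowest p. The window of ZNF239 held 1 TGANTCA and 2 CCGGAA, and that of CNBD2 none of the 4 motifs. Over 35116 promoter windows of this length, 19.2% held GGCGCC, 1.85% TGACGTCA, 17.2% CCGGAA and 7.71% TGANTCA. The 4 motifs do not contain one another, a match is a description of letters only, and 10 of the 12 genes with the lowest p had an entry.

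SPRY4, a Sprouty inhibitor of the path from receptors to ERK (ENSG00000187678, hg19 chr5:141689992-141706020), measured 32.7, 37.4 and 39.7 CPM in control, 23.7, 21.8 and 23.1 with lactoferrin and 25.4, 25.2 and 20.2 with both agents. All 6 exposed libraries lay below all 3 controls, and the highest exposed value was well under the lowest control. The log2 fold change was -0.66 ± 0.10 (SE; 95% interval -0.86 to -0.45), with an adjusted p of 0.0836 by edgeR and 4.22e-06 by DESeq2. Leaving out 1 library at a time moved the edgeR adjusted p from 0.0404, without both agents replicate 3, to 0.9997, without control replicate 3, with 0.909 without control replicate 2. It was 0.761 with a replicate block, 0.568 with all 12 libraries in the fit and 0.0176, at a fold change of -0.59, without both libraries that stood apart, a fit chosen after seeing the data. Its relative SPRY2 measured 28.8, 31.2 and 28.8 CPM in control, 22.2, 23.1 and 24.8 with lactoferrin and 21.3, 21.0 and 23.8 with both agents, again with no overlap, and a log2 fold change of -0.38 ± 0.09 (edgeR adjusted p = 0.988, DESeq2 0.131). SPRED2, a membrane-bound inhibitor of the same path, differed less, at -0.19 ± 0.08, and its groups overlapped.

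DUSP6, the cytoplasmic phosphatase of ERK (ENSG00000139318, hg19 chr12:89741009-89747048), measured 27.0, 27.1 and 23.4 CPM in control, 14.4, 18.9 and 17.7 with lactoferrin and 18.0, 14.5 and 21.2 with both agents. The exposed libraries again all lay below control, though with more spread among themselves than for SPRY4. The log2 fold change was -0.57 ± 0.12 (95% interval -0.82 to -0.31), with an adjusted p of 0.988 by edgeR and 0.104 by DESeq2, and edgeR's value depended on the libraries used. Leaving out 1 library at a time gave an edgeR adjusted p of 0.899 to 0.9998 in 8 of 9 cases and 0.116 without both agents replicate 3, a replicate block gave 0.999, and leaving out both libraries that stood apart gave 0.0200 at -0.68. DUSP5, a nuclear phosphatase of ERK, had -0.33 ± 0.14 and DUSP2, another nuclear phosphatase of the family, -0.46 ± 0.14; for both, exposed and control libraries overlapped. DUSP4 and DUSP1, further phosphatases of MAP kinases, had -0.07 ± 0.23 and -0.04 ± 0.13.

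MYC, the growth-promoting transcription factor (ENSG00000136997), measured 153, 179 and 200.2 CPM in control, 129, 117 and 148 with lactoferrin and 128, 129 and 118 with both agents. Its highest exposed library stood just under its lowest control. The log2 fold change was -0.47 ± 0.09, with an adjusted p of 0.781 by edgeR and 0.0336 by DESeq2. EPHA2, a receptor tyrosine kinase for ephrins (ENSG00000142627, hg19 chr1:16450832-16482582), measured 49.7, 51.2 and 66.2 CPM in control, 42.8, 31.0 and 42.5 with lactoferrin and 41.6, 44.8 and 35.5 with both agents. Its log2 fold change was -0.49 ± 0.12 with an adjusted p of 0.988 by edgeR and 0.316 by DESeq2, and its 6 exposed libraries lay below control. Among the immediate early genes, which ERK induces within minutes, EGR1 had -0.33 ± 0.12 and IER3 -0.30 ± 0.12, both with overlap. FOS had -0.25 ± 0.18, JUN 0.04 ± 0.10, JUNB -0.17 ± 0.15, FOSL1 -0.29 ± 0.22 and FOSB, the highest of the list, 0.70 ± 0.45. The ETS factor genes ETV4 and ETV5, also used as ERK readouts, had -0.08 ± 0.09 and -0.25 ± 0.18, and CCND1, which encodes cyclin D1, -0.04 ± 0.08.

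Of the 35 listed immediate early and MAPK feedback genes 33 were tested, and none was called by edgeR. At an unadjusted p under 0.05, 9 were lower (SPRY4, MYC, DUSP6, SPRY2, DUSP2, EGR1, IER3, DUSP5 and SPRED2) and 0 higher, against 1.31% lower and 2.04% higher over all tested genes. This list, like the others, was chosen with earlier results of these data known, so counts of its members are no independent support. Of the 33, 23 lay below 0, against 7343 of all 15143 tested genes, with a median of -0.10 against 0.01. Without overlap between the 6 exposed and 3 control libraries, 4 were lower, against 1.23% of all tested genes. The list's median in single libraries was less separated than these genes: control ran from -0.11 to 0.05 and the exposed libraries from -0.22 to 0.01. Control replicate 1 was the lowest control for the list and for SPRY4, MYC and EPHA2, as the plot of ERK feedback genes shows.

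**Figure D3:**
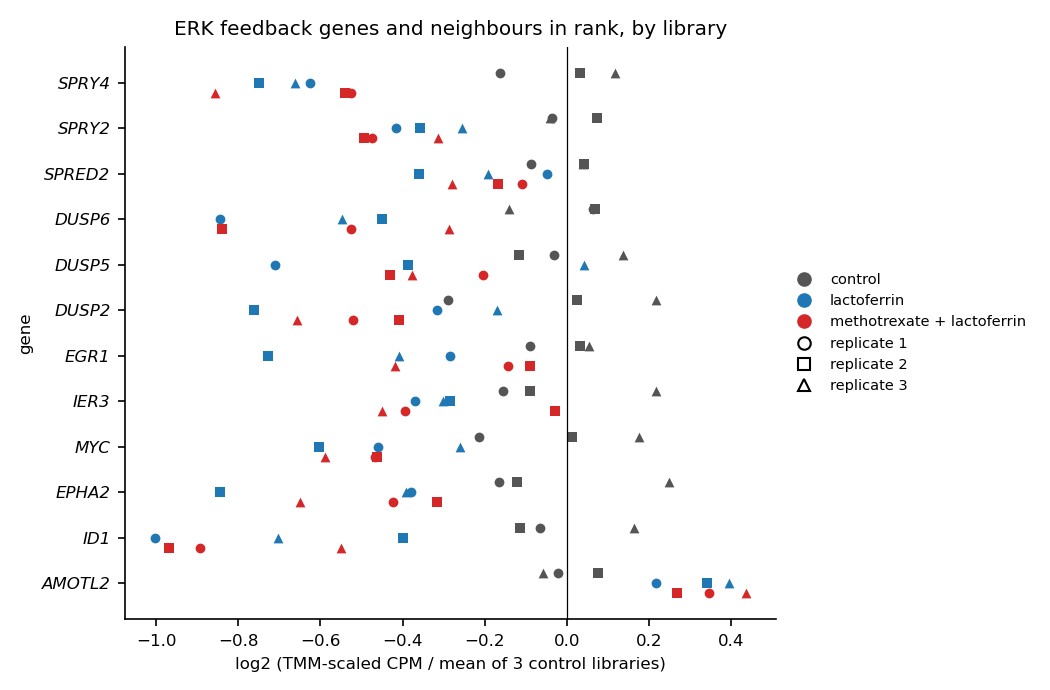
Level of 12 genes in each of the 9 libraries as log2 of TMM-scaled CPM over the mean of the 3 controls (horizontal axis), 1 gene per line, with colour for the group and shape for the replicate. Exposed libraries sit left of all controls for SPRY4, SPRY2, DUSP6, MYC, EPHA2 and ID1 and right of them for AMOTL2, and mix with controls for SPRED2, DUSP5, DUSP2, EGR1 and IER3.

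ID1 had the second lowest p of all tested genes. It encodes an inhibitor of basic helix-loop-helix transcription factors and is a direct target of BMP signalling (ENSG00000125968, hg19 chr20:30193086-30194318). It measured 14.2, 13.7 and 16.6 CPM in control, 7.40, 11.3 and 9.12 with lactoferrin and 7.99, 7.58 and 10.1 with both agents, with every exposed library below every control. The log2 fold change was -0.74 ± 0.14 (95% interval -1.03 to -0.44), with an adjusted p of 0.551 by edgeR and 0.0112 by DESeq2, and edgeR's value again depended on the libraries used. Leaving out 1 library at a time gave an edgeR adjusted p of 0.899 to 0.9997 in 7 of 9 cases, 0.129 without lactoferrin replicate 2 and 0.116 without both agents replicate 3, a replicate block gave 0.999, and leaving out both libraries that stood apart gave 0.00831 at -0.89. AMOTL2, a junction protein that binds YAP and is a target of it, was higher, with 50.5, 54.0 and 49.2 CPM in control, 59.6, 64.9 and 67.4 with lactoferrin and 65.1, 61.6 and 69.4 with both agents and no overlap. Its log2 fold change was 0.34 ± 0.08 (edgeR adjusted p = 0.988, DESeq2 0.114). LATS2, a kinase that inhibits YAP and is induced by it, was likewise higher in all 6, at 0.28 ± 0.08. ANKRD1, another YAP target, was lower in all 6, with 2.93, 2.49 and 3.16 CPM in control, 2.07, 2.16 and 0.960 with lactoferrin and 1.56, 1.95 and 2.05 with both agents, at -0.67 ± 0.23. Of the 19 tested TGF-beta, BMP and YAP targets, 3 were higher and 2 lower at an unadjusted p under 0.05, against 2.04% higher and 1.31% lower over all tested genes, with a median of 0.09. That median was 0.01 without control replicate 1 and 0.20 without control replicate 3.

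Other signalling genes of moderate level showed small differences without overlap, none called by edgeR or DESeq2. SHH, the hedgehog ligand, measured 12.02, 12.4 and 11.9 CPM in control, 9.12, 10.3 and 9.01 with lactoferrin and 9.38, 8.81 and 9.24 with both agents, a log2 fold change of -0.38 ± 0.10. JAG1, a ligand of Notch, had -0.26 ± 0.07, while the Notch targets HES1 and HES4 had 0.21 ± 0.08 and 0.41 ± 0.12. ISX, the intestine-specific homeobox factor, measured 43.1, 39.7 and 41.5 CPM in control, 34.0, 32.8 and 28.5 with lactoferrin and 37.0, 33.6 and 33.3 with both agents, a log2 fold change of -0.32 ± 0.09. XBP1, a transcription factor of the unfolded protein response, measured 315, 308 and 315 CPM in control, 277, 255 and 287 with lactoferrin and 264, 260.3 and 248 with both agents, at -0.24 ± 0.07. ETS2, a transcription factor that ERK phosphorylates, had -0.28 ± 0.09, and SPINK1, a trypsin inhibitor, -0.29 ± 0.08. Exposed and control libraries of each of these did not overlap, a pattern found in 175 higher genes (1.16%) and 186 lower genes (1.23%) of all tested. These genes were picked after their values were seen, so the lack of overlap is no independent support. The zinc finger gene ZNF239 had -0.49 ± 0.11, with 12.4, 10.98 and 11.5 CPM in control, 9.12, 8.29 and 8.21 with lactoferrin and 7.23, 9.12 and 7.81 with both agents.

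The largest fold changes among the lowest p-values belonged to transcripts under 1 CPM in every one of the 9 libraries. MT1G, a metallothionein that binds zinc and copper, measured 0.101, 0.127 and 0.222 CPM in control, 0.353, 0.412 and 0.533 with lactoferrin and 0.670, 0.922 and 0.762 with both agents, a log2 fold change of 1.97 ± 0.49. Reads of the near-identical metallothionein genes may have been split between them in the deposited counts. HOXA2, a homeobox factor, had 1.82 ± 0.44, GPSM3, a regulator of G protein signalling, 1.84 ± 0.45, and CNBD2 -1.76 ± 0.43. Several of these values lay near the 3-count floor, and the intervals were wide, as -2.68 to -0.84 for CNBD2 shows.

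No gene of iron handling passed the test, as none of the 15143 tested genes did, and the intervals of most were narrow. TFRC, the transferrin receptor, whose transcript is stabilised when cellular iron is low, measured 468, 434 and 501 CPM in control, 422, 495 and 446 with lactoferrin and 453, 409 and 545 with both agents. The groups overlapped, and the log2 fold change was -0.02 ± 0.09 (95% interval -0.22 to 0.18). FTH1, the ferritin heavy chain, varied widely within groups: it measured 314, 254 and 208 CPM in control, 179, 499.8 and 412 with lactoferrin and 292, 363 and 314 with both agents. Its log2 fold change was 0.41 ± 0.22 (95% interval -0.07 to 0.88), and reads of its processed pseudogenes may enter this count. Without a filter on low counts, edgeR called FTH1 for lactoferrin alone. FTL, the ferritin light chain, had -0.05 ± 0.07 (95% interval -0.19 to 0.10), from 2157, 2194 and 2382 CPM in control. SLC40A1, the iron exporter ferroportin, had -0.10 ± 0.08, and SLC11A2, the importer DMT1, 0.01 ± 0.09. Of the 28 listed genes 23 were tested, 0 had an unadjusted p under 0.05 in either direction, and the median was -0.03. That p was reached by 3.35% of all tested genes, so 0 of 23 does not set the list apart. For 22 of the 23 the 95% interval lay within 2-fold.

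No transcript of the proteins reported to bind lactoferrin passed the test, which no tested gene did. LRP1, an endocytic receptor, had 0.02 ± 0.13, and LRP2, or megalin, -0.20 ± 0.12. NCL, which encodes nucleolin, had 0.00 ± 0.08, the asialoglycoprotein receptor gene ASGR1 -0.04 ± 0.09, and ITLN1, which encodes intelectin-1, -0.06 ± 0.31 (95% interval -0.72 to 0.59). Of the 19 tested genes of this list, 0 had an unadjusted p under 0.05, against 3.35% of all tested genes. The median was -0.04, and all 19 intervals lay within 2-fold. LTF, the lactoferrin gene of the cells themselves, was scarce: it measured 0.0505, 0.718 and 0.489 CPM in control, 0.252, 0.566 and 0.587 with lactoferrin and 0.670, 0.410 and 0.619 with both agents. Its log2 fold change was 0.26 ± 0.50 (95% interval -0.81 to 1.33), an interval too wide to show a 2-fold difference at this depth.

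No gene of the epithelial state, the cell cycle or folate metabolism passed the test, which no tested gene did. Of the 18 epithelial identity markers of the line, 0 had an unadjusted p under 0.05, against 3.35% of all tested genes. The median was -0.04, and all 18 intervals lay within 2-fold. VIL1, which encodes the brush border protein villin, measured 858, 864 and 892 CPM in control, 856, 762 and 834 with lactoferrin and 839, 858 and 733 with both agents; its exposed libraries lay below the controls, in 1 case by less than the rounding shows, at -0.10 ± 0.07. CDH1, E-cadherin, had -0.00 ± 0.07 (95% interval -0.15 to 0.15), and the stem cell receptor gene LGR5 -0.03 ± 0.10. MKI67, the proliferation marker, had 0.27 ± 0.12 with overlapping groups, and CDKN1A, which encodes the cell cycle inhibitor p21, -0.15 ± 0.11. TYMS, thymidylate synthase, had -0.00 ± 0.09 (-0.11 with lactoferrin and 0.09 with both agents). In the lists of folate cycle (24 tested) and nucleotide synthesis (29 tested) genes, 0 had an unadjusted p under 0.05, with medians of -0.03 and -0.08.

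Genes of the ribosome and of respiration had the lowest medians of the 39 lists, each with few members of low p. Of 32 tested cytosolic ribosomal protein genes, 31 lay below 0, with a median of -0.11, against 7343 of the 15143 tested genes below 0. At an unadjusted p under 0.05, 2 (RPL37 and RPS3) were lower, against 1.31% of all tested genes. RPL37 measured 934, 837 and 738 CPM in control, 693, 666 and 694 with lactoferrin and 767, 708 and 567 with both agents, with overlapping groups and a log2 fold change of -0.29 ± 0.09. Of 29 tested oxidative phosphorylation genes, 27 lay below 0, with a median of -0.12, and 2 (UQCRQ and ATP5A1) were lower at that p. These genes are short, with median lengths of 2029.5 and 1769 bases against 3120 over all tested genes, and the pooled fold change moved with length over all genes, from a median of -0.04 in the shortest class to 0.04 in the longest. Both agents replicate 3, the library with the steepest length trend, had the lowest median of both lists, at -0.30 and -0.31. Without both libraries that stood apart the medians were -0.07 and -0.06, and with the length trend removed from every library they were -0.10 and -0.10. The part of length in these medians was otherwise not tested. Ribosome biogenesis genes (27 tested) had a median of -0.07, with 24 below 0 and BYSL, a factor of small subunit assembly, at -0.23 ± 0.09. The 13 mitochondrially encoded genes had a median of 0.08 with 0 at an unadjusted p under 0.05, and controls alone spanned -0.34 to 0.38 for this list. Its median was -0.06 without control replicate 1 and 0.29 without control replicate 3.

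The stress and damage lists held at most 2 members of low p in either direction. Over all tested genes, 2.04% were higher and 1.31% lower at an unadjusted p under 0.05. NRF2 targets and antioxidants (22 tested) had 0 at an unadjusted p under 0.05 and a median of -0.09, and heat shock proteins (16 tested) 0 and -0.04. Of 24 p53 targets, AEN, a nuclease, and ZMAT3, an RNA-binding protein, were lower, at -0.29 ± 0.10 and -0.28 ± 0.12, with a list median of -0.06. Of 30 genes of the integrated stress response, VLDLR, a lipoprotein receptor, was higher at 1.00 ± 0.38 and CHAC1, which degrades glutathione, lower at -0.47 ± 0.20, with a median of -0.03. In the unfolded protein response list (21 tested) XBP1 was the 1 member of low p and the median was -0.06. Hypoxia and glycolysis genes (25 tested) had HK2, hexokinase 2, at -0.20 ± 0.08 and a median of -0.01. NF-kB and inflammatory genes (21 tested) had 0 members of low p and a median of 0.00, and interferon-stimulated genes (23 tested) had PSMB8, a subunit of the immunoproteasome, at -0.36 ± 0.15. Apoptosis genes (25 tested) had BCL2L11, which promotes cell death, at 0.25 ± 0.11 and BCL2L1, which opposes it, at -0.20 ± 0.09, and autophagy and lysosome genes (21 tested) had 0 and a median of -0.04. Of 9 tested metallothionein and zinc genes, MT1G was higher, and MT1F, another metallothionein, and SLC30A2, a zinc transporter, were lower, at -0.34 ± 0.12 and -0.46 ± 0.21.

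The lists of differentiated functions and of the cell cycle held at most 2 such members, and the histone list 4. Of 23 brush border and digestion genes, ENPEP, an aminopeptidase, was higher at 0.49 ± 0.22, with a median of 0.02, and of 22 tight junction and adhesion genes CLDN2, a pore-forming claudin, was lower at -0.21 ± 0.10. Of 24 intestinal transcription factors ISX was lower and HES1 higher at an unadjusted p under 0.05, with a median of 0.01. The Wnt and stem cell list (22 tested) held MYC alone at that p. Secreted proteins of liver type, which Caco-2 cells make, numbered 23 tested with 2 lower, among them AMBP, the alpha-1-microglobulin precursor, at -0.43 ± 0.15, and a median of -0.07. Xenobiotic metabolism and transporters (22 tested) and fatty acid and lipid handling (24 tested) had 0 members at an unadjusted p under 0.05, with medians of -0.05 and -0.04. Cholesterol synthesis and uptake (26 tested) had STARD4, a sterol carrier, at 0.30 ± 0.14. Of 32 genes of G1/S and replication, FEN1, a flap nuclease, was lower at -0.17 ± 0.08, and of 29 of G2/M and mitosis MKI67 was higher. Of 18 histone genes 1 was higher and 3 lower at an unadjusted p under 0.05, against 2.04% and 1.31% of all tested genes, with HIST1H3D at 0.97 ± 0.27 and HIST1H4C at -0.68 ± 0.21; close copies may share reads, and the sources used here do not give whether poly(A) RNA was selected.

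**Figure D4:**
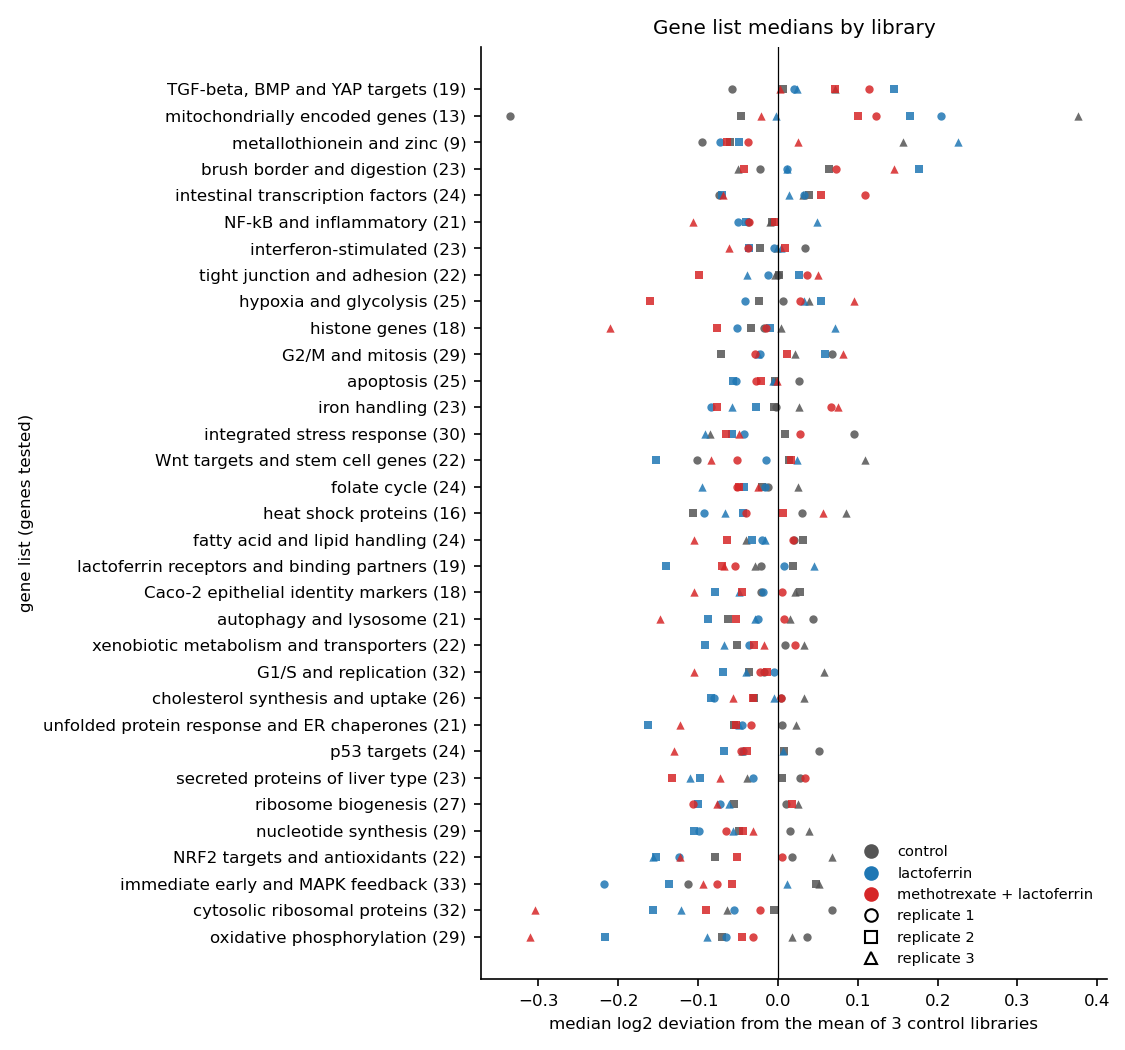
Median log2 deviation from the control mean (horizontal axis) of each gene list in each of the 9 libraries, with the number of tested genes in brackets, colour for the group and shape for the replicate. Both agents replicate 3 lies lowest for the oxidative phosphorylation and ribosomal protein lists, and control replicates 1 and 3 lie at either end for mitochondrially encoded genes.

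Both exposed groups had the same sign for nearly all of the genes that set the pooled comparison. Of the 507 genes at an unadjusted p under 0.05, 505 had the same sign with lactoferrin alone and with both agents, 109 reached that p in each group on its own, and 213 had no overlap between exposed and control libraries. The difference between the exposed groups reached that p for 16 of them, and edgeR called 0. Pooling selects genes on which the groups are alike, and both groups were set against the same 3 controls, so these counts describe the selection and are no independent support. For SPRY4 the log2 fold change was -0.68 with lactoferrin and -0.63 with both agents, for ID1 -0.68 with lactoferrin and -0.79 with both agents, for MYC -0.44 with lactoferrin and -0.51 with both agents and for DUSP6 -0.60 with lactoferrin and -0.53 with both agents. For AMOTL2 it was 0.32 with lactoferrin and 0.35 with both agents. Each group alone against control gave 0 genes at an edgeR adjusted p under 0.05 (0%), with 526 at an unadjusted p under 0.05 (3.47%) for lactoferrin and 382 (2.52%) for both agents. DESeq2 called SPRY4 alone for lactoferrin (0.0066%), and for both agents 6 genes (0.0396%): SPRY4 and ID1, lower, and AKAP12, LGALS1, MSN and VIM, higher.

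The lowest p-values for the difference between the exposed groups belonged mostly to scarce transcripts. Between both agents and lactoferrin alone edgeR called 0 genes (0%), with 395 at an unadjusted p under 0.05 (2.61%), and DESeq2 called 3 (0.0198%): VIM, MSN and LGALS1, all higher with both agents. VIM, the intermediate filament protein vimentin, measured 0.758, 0.675 and 0.578 CPM in control, 0.705, 0.618 and 0.533 with lactoferrin and 1.96, 2.10 and 2.43 with both agents. Its difference, both agents minus lactoferrin, was 1.79 ± 0.29 on the log2 scale (adjusted p = 0.190 by edgeR, 0.0135 by DESeq2). MSN, the membrane-to-actin linker moesin, measured 1.06, 0.549 and 0.311 CPM in control, 0.756, 0.463 and 0.480 with lactoferrin and 2.72, 2.77 and 2.81 with both agents, a difference of 2.27 ± 0.37 (adjusted p = 0.190 by edgeR, 0.000552 by DESeq2). LGALS1, galectin-1, measured 1.52, 0.929 and 0.934 CPM in control, 1.11, 0.926 and 0.960 with lactoferrin and 2.59, 4.00 and 3.10 with both agents, a difference of 1.68 ± 0.28 (adjusted p = 0.190 by edgeR, 0.00342 by DESeq2). For all 3 genes the libraries with both agents lay above the other 6, which overlapped with one another. FSTL1, a secreted glycoprotein, had a difference of 2.33 ± 0.53, and AKAP12, a scaffold of protein kinase A, 1.37 ± 0.40. AREG, the EGF receptor ligand amphiregulin, was lower with both agents than with lactoferrin, at -0.63 ± 0.14, with 9.60, 9.16 and 9.07 CPM in control, 9.87, 11.1 and 13.6 with lactoferrin and 7.64, 7.38 and 7.34 with both agents. H19, an imprinted long non-coding RNA, split within its group: it measured 1.52, 0.844 and 1.29 CPM in control, 1.36, 1.39 and 1.97 with lactoferrin and 7.86, 6.97 and 0.286 with both agents.

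The same scarce genes were abundant in the libraries labelled methotrexate alone, at 522, 613 and 651 CPM for VIM, 186, 185 and 189.5 for MSN and 732, 893 and 821 for LGALS1, without TMM scaling. COL3A1, a fibrillar collagen that reached 161428, 186969 and 188301 counts there, had 34, 37 and 31 counts in control, 23, 21 and 26 with lactoferrin and 19, 32 and 28 with both agents. So the collagen was no higher with both agents than in control, as the plot of scarce genes shows. Of the 20 fibroblast markers 12 were tested, VIM alone was higher at an unadjusted p under 0.05, and DPT, MFAP5 and COL15A1 were at 0 counts in all 9 libraries. Of the 20 adipocyte markers 10 were tested, 0 had that p, TUSC5 was at 0 counts, and the list summed to 559.6 to 628 CPM in control, 564 to 611 after lactoferrin and 525 to 603 after both agents, against 23945 to 24947 in the libraries labelled methotrexate alone. The fat-cell genes FABP4, LPL and ADIPOQ had 37, 29 and 5 counts in control replicate 1 and 0 to 3 in each of the other 8 libraries. BPIFA1, a secreted airway protein, had 29 counts in control replicate 3 and 0 in the other 8. The part of RNA from other samples or cells in these differences was not tested. Endothelial markers (4 of 14 tested) summed to 28.4 to 36.7 CPM in control and 27.9 to 38.8 in the exposed libraries, with ENG, endoglin, at 1.05 ± 0.49. Blood and immune markers (5 of 18 tested; among them CD68, MS4A1 and HBB at 0) summed to 51.1 to 55.6 and 51.8 to 56.9 CPM, and smooth muscle and pericyte markers (5 of 10 tested) to 234 to 301 and 232 to 315 CPM, each with 0 members at an unadjusted p under 0.05. Goblet, Paneth and enteroendocrine markers (8 of 17 tested; SST and NEUROD1 at 0) summed to 213 to 236 CPM in control, 206 to 234 after lactoferrin and 167 to 232 after both agents, with SPINK4, a goblet cell peptide, at -0.61 ± 0.24.

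**Figure D5:**
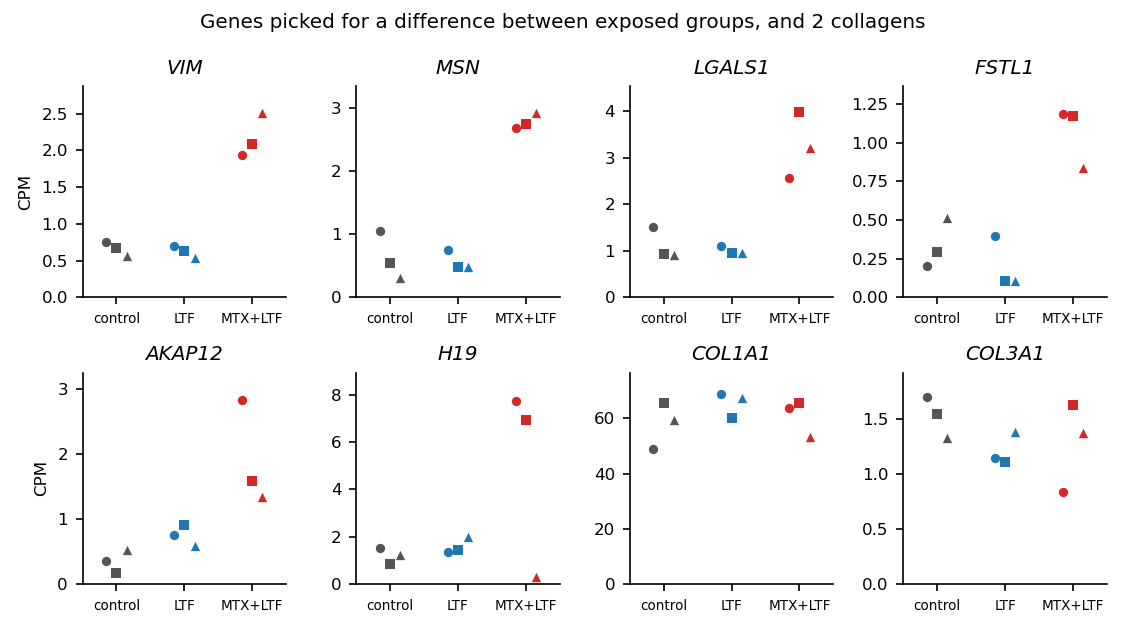
CPM without TMM scaling (vertical axes, from 0) of 8 genes in the 3 libraries of each group, LTF for lactoferrin and MTX+LTF for both agents, with shape for the replicate. VIM, MSN and LGALS1 are higher in all 3 libraries with both agents, H19 in 2 of them, and the collagens COL1A1 and COL3A1 are not.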

How the data were processed

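RNA-seq counts were analysed from 9 samples of Caco-2 spheroids, grouped by their labels into control, lactoferrin and methotrexate with lactoferrin (3 each). The table deposited by the authors holds whole-number counts per gene, and the submitters' processing notes name CASAVA, STAR, DESeq2 and the build hg19 without versions or roles. The annotation, the counting program, and whether strand was kept or read pairs counted are not stated in these sources, so antisense and near-identical genes are uncertain. All per-sample columns matched a sample label.

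Low counts were removed by filterByExpr over the 3 groups (15143 genes kept), and libraries were scaled with TMM in edgeR 4.0.16 (R 4.3.3), and printed CPM are TMM-scaled except for marker sums and where stated. The model had 1 mean for the 6 exposed and 1 for the 3 control libraries (biological coefficient of variation 11.8%, median of 15.6 total degrees of freedom), and a fit with 3 group means (12.2%) gave each group and their difference. The quasi-likelihood F test was adjusted by Benjamini-Hochberg over all tested genes and called under 0.05. Intervals are 95%, from the fold change, its SE and the moderated degrees of freedom. The pipeline was tested on simulated data. The rule for named genes took called genes of average log2 CPM of at least 1 without overlap, which gave 0, and genes given in any case. A few genes, though kept in all fits and counts, are not reported here by name. The comparison, its members and the 39 gene lists (32 of pathways or functions, 7 of markers) were chosen with earlier results of these data known. List members with no gene of that symbol in the table were not used.

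Alternatives were relative log expression factors, DESeq2 1.42.0, limma-voom 3.58.1, no filter, all 12 libraries in the fit, a replicate block, the submitters' threshold, 3 group means and leaving out each library. A fit without both libraries that stood apart, removal of the length trend (lowess span 0.3) and robust estimation were chosen after seeing the data. Promoters came from RefSeq tables on GRCh38.p14 and gene coordinates from the deposited table on hg19. No 2 libraries of a group agreed within sampling noise (chi-square per degree of freedom at least 7.43).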

Additional observations from a re-analysis of the deposited data

Results flagged for a closer look

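Among the 6 exposed libraries, 1 library stood far from the other 5 by Dixon's gap in 3 of 79 values checked, and chance gives about 1 in 20. The median of the metallothionein and zinc genes was 0.23 in lactoferrin replicate 3, against -0.07 to 0.02 in the others. The median of the ribosome biogenesis genes was 0.017 in both agents replicate 2, against -0.11 to -0.06. The median of the adipocyte markers was -0.29 in both agents replicate 3, against -0.06 to 0.03.

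The exposed groups differed from each other by DESeq2's test of the difference for MSN (adjusted p = 0.000552), LGALS1 (0.00342) and VIM (0.0135), though not by edgeR.

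The libraries labelled methotrexate alone, which entered only the alternative with all 12 libraries in the fit, held markers of other cells far above control. Their lowest sum was 17397 CPM for fibroblast markers and 23945 CPM for adipocyte markers, against control maxima of 333 and 628. Their lowest values, without TMM scaling, were 522 CPM for VIM, 185 for MSN and 732 for LGALS1, against control maxima of 0.754, 1.06 and 1.51.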

How the results depend on the processing

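The count of genes at an edgeR adjusted p under 0.05 was 0 in each comparison. It was 0 as well with relative log expression factors, limma-voom, robust estimation and the length trend removed, and in the pooled comparison with 3 group means. The submitters' threshold, an adjusted p under 0.01 and more than 2-fold, was stricter and was set on the same edgeR fit. It could therefore only give 0. DESeq2 called 3 genes in the pooled comparison, 1 for lactoferrin, 6 for both agents and 3 between the exposed groups, and both exposed groups had the same sign for all 3 pooled calls. Without a filter on low counts edgeR called 11, 15, 15 and 9. The 11 pooled genes were AKAP12, BPIFA1, DUSP6, EPHA2, FABP4, H19, ID1, LPL, MST1P2, MYC and SPRY4, all with the same sign in both groups. Of these, H19 had 176, 136 and 6 counts with both agents, against 30, 20 and 29 in control and 27, 27 and 37 with lactoferrin. AKAP12 had 64, 31 and 27 with both agents, 15, 17 and 11 with lactoferrin and 7, 4 and 12 in control. FABP4 and LPL rested on 37 and 29 counts in control replicate 1, and BPIFA1 on 29 in control replicate 3. Both groups shared these controls, so the same sign is no independent support. With all 12 libraries in the fit edgeR called 5 for both agents and 3 between the exposed groups. Without both libraries that stood apart it called 3 in the pooled comparison (DUSP6, ID1 and SPRY4), with the same sign in both groups, 1 for both agents and 1 between them (H19 each). Leaving out 1 library in turn gave 0 to 1 in the pooled comparison (SPRY4 without both agents replicate 3), in its sign check and for both agents (H19 without the same library), 0 to 0 for lactoferrin and 0 to 1 between the exposed groups.

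With the replicate number as a block edgeR called 0 in each comparison, with 416 pooled genes at an unadjusted p under 0.05. Same-numbered libraries correlated at -0.58 to 0.33 and 1 of 9 correlated best with its own number, so no pairing by number was seen. Lactoferrin replicate 2 and both agents replicate 3, which stood apart, correlated at 0.69, so this check could have missed a pairing. SPRY4 ran from -0.73 to -0.59 over 19 alternatives and was called in 4, ID1 in 3, MYC and DUSP6 in 2 and EPHA2 in 1. Each of these 5 genes was below 0 under all 19. They were chosen for a low p in these same counts, so the kept sign is no independent support. For other genes called under an alternative, signs under all 19 are not given here. With 3 control libraries, and 3 counts equal to 0.126 to 0.160 CPM, differences in genes near 1 CPM were not detectable unless large.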
